A study of Mus musculus with 11 samples.

Results

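The response of the normal mouse lung to ovalbumin (OVA), the egg-white protein used to provoke allergic airway inflammation in mice, was measured on 6 of the 11 arrays of a study of the transcription factors FOXA2 and FOXA3. Whole-lung total RNA came from littermate control mice, labelled WT, challenged with saline (3 arrays) or with OVA (3 arrays). The other 5 arrays held lung RNA of Foxa3 KO mice challenged with saline (2 arrays) or OVA (3 arrays) and are used here for the spread between arrays and for a side-by-side comparison. Strain, age, sex, sensitization schedule, dose and time of challenge are not given in the sources used here. Nor do the labels say whether each array is a separate animal, so the p-values measure the spread between these lung samples.

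In allergic airway disease an inhaled allergen is met by T helper 2 cells, which release IL-4, IL-5 and IL-13. IL-5 supports eosinophils, IL-13 turns airway epithelium toward mucus-secreting goblet cells, and both IL-4 and IL-13 drive macrophages into an alternatively activated state that makes arginase and eosinophil-attracting chemokines. Interferon-gamma, made by T helper 1 and natural killer cells, acts on a different gene set of chemokines, GTPases and antigen-presenting molecules. Each of these gene sets can be read in whole-lung RNA, although such bulk samples cannot tell more cells of a type from more RNA per cell.

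Of 22085 genes measured, 4147 differed between OVA and saline at a limma adjusted p under 0.05 (18.8%), and such genes are called here. After OVA 2392 were higher (10.8%) and 1755 lower (7.95%), and the deposited table of the authors' own processed values, fitted the same way, gave 2424 higher and 2705 lower (47.3% higher against 57.7%). All 127 called genes named below had the same sign in that table. For 30 of them the log2 change there was over 1.5 times smaller, so that the folds differ by more, and for 0 it was over 1.5 times larger. Among the 30, Gdf3 had 0.40 of the log2 change given below, Kcnip4 0.48 and Itln1 0.54. The rises were larger than the falls: 1156 genes rose and 304 fell at least 2-fold, 352 rose and 18 fell at least 4-fold, and 31 rose and 0 fell at least 16-fold. Over all genes the median log2 change was 0.02 and the 5th and 95th percentiles were -0.80 and 1.19. The 3 OVA and 3 saline arrays did not overlap for 4140 of the 4147 called genes, against 42.74% of all genes.

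The arrays came from 3 slides, each holding 1 wild-type saline and 1 wild-type OVA array, so the change could be read within each slide. Among the called genes 4134 had the same sign on all 3 slides. Where the OVA and saline arrays do not overlap and no value is missing this must hold, so the count is no separate check. A gene with a missing value on any of the 6 arrays could not enter this count. For the 1156 rises of at least 2-fold the median difference was 1.77 on slide 1, 1.28 on slide 2 and 1.77 on slide 3, and for the 304 falls it was -1.33, -0.75 and -1.62. With slide as a term in the fit 2734 genes were called, 2533 of them among the 4147, and with slide 1, 2 or 3 left out 27, 1874 and 526 were called. With another background correction, normexp on the raw means, the count was 0 (2478 at an unadjusted p under 0.05), and it was 5696 once spots with a far local background were left out. The number called depended on single arrays: it was 6311 without OVA array 1, 1074 without OVA array 2, 1051 without OVA array 3, and 1538, 1129 and 1989 without saline arrays 1, 2 and 3, and 895 genes kept their call in all 6 of these fits. Between 72.83% and 78.86% of probes were well above background on the 6 arrays, and defining lung genes were present on all of them. The type II pneumocyte gene Sftpc (log2 change 0.42, adjusted p = 0.0569), the club cell gene Scgb1a1 (0.21, 0.424), the type I pneumocyte gene Ager (-0.59, 0.0688) and the ciliated cell gene Foxj1 (0.09, 0.854) did not pass the threshold, although Ager did without OVA array 1 (0.00736).

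**Figure D1:**
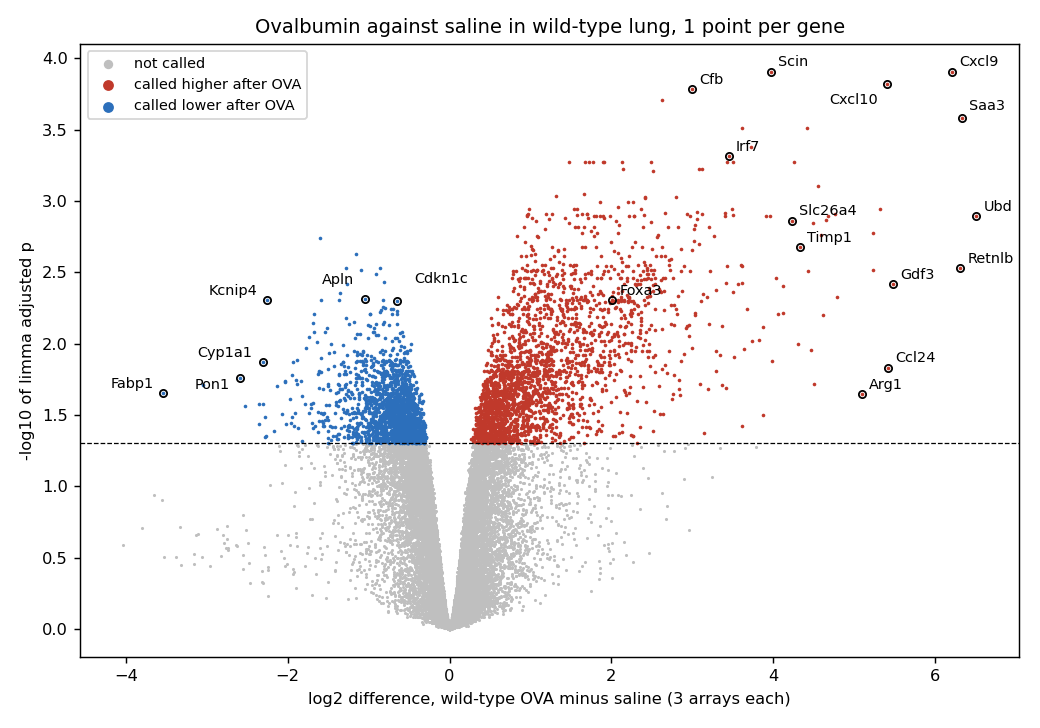
Log2 difference between wild-type OVA and saline arrays (horizontal, 3 arrays each) against -log10 of the limma adjusted p (vertical), 1 point per gene. Of 22085 genes, 2392 were called higher (red) and 1755 lower (blue), the dashed line marks adjusted p = 0.05, and the rises reach further from 0 than the falls. The share called higher was 57.7% here and 47.3% in the authors' deposited table.

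Many promoters of the antiviral effectors, the interferon-gamma-inducible GTPases and the mitosis list, all of whose measured members rose, hold a short motif. For that reason 4 promoters with each motif are shown: Isg15, Ifit1 and Oas1a of the antiviral effectors and Gbp2 of the GTPases, then 4 mitosis genes. The sequences are from RefSeq (mouse GRCm38.p6), 5′ to 3′ on the strand of the gene, and capitals mark the motif on either strand. The interferon-stimulated response element was searched as GAAANNGAAA, copies may overlap, and N is any base.
Isg15 (chr4:156200819-156200978, minus strand): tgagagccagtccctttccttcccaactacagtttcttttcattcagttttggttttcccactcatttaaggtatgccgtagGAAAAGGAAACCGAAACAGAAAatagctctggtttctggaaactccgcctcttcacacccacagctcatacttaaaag
Ifit1 (chr19:34640729-34640888, plus strand): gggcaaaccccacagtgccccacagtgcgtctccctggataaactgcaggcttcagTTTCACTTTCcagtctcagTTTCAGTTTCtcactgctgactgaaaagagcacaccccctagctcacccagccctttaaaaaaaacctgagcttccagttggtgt
Oas1a (chr5:120907526-120907685, minus strand): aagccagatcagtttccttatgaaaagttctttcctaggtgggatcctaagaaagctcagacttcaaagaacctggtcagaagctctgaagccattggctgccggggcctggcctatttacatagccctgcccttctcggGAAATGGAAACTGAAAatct
Gbp2 (chr3:142620503-142620662, plus strand): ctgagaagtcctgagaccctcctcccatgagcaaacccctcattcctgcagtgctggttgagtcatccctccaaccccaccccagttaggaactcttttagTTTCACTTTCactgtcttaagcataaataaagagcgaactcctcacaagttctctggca
The cell-cycle genes homology region (CHR) was searched as TTTGAA.
Cdc20 (chr4:118437344-118437503, minus strand): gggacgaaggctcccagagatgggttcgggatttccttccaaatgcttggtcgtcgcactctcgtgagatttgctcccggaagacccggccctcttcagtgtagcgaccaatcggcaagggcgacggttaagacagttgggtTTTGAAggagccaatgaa
Ube2c (chr2:164769769-164769928, plus strand): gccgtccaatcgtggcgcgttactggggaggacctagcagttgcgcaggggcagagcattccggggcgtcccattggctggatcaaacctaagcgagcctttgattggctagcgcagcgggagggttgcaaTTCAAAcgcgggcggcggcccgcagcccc
Top2a (chr11:99024190-99024349, minus strand): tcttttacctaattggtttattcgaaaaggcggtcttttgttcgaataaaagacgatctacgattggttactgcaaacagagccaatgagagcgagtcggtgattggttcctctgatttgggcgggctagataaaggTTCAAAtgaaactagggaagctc
Cdk1 (chr10:69352913-69353072, minus strand): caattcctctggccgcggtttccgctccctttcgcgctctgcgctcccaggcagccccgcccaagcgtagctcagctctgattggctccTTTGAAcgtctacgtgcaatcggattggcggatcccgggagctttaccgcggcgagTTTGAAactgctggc

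Promoters of 300 bases, 250 before and 50 after the start, were matched for 13314 of the 22085 genes. The response element GAAANNGAAA stood in 3.06% of them, in 6.89% of the genes called higher, in 11.57% of those that rose at least 4-fold and in 1.53% of those called lower. It was present in 8 of 12 antiviral effectors and 8 of 9 interferon-inducible GTPases with a matched promoter. Other interferon-related lists held it less often: 3 of 5 nucleic acid sensors, 3 of 10 MHC class I and immunoproteasome genes, 1 of 8 interferon regulatory factors and 1 of 3 CXCR3 axis genes. TTTGAA, a shorter and therefore commoner word, stood in 13.38% of matched promoters, in 17.95% of genes called higher, in 30.99% of those that rose at least 4-fold and in 12.29% of those called lower. It was present in 11 of 16 mitosis genes and in 1 of 16 DNA replication genes. Other lists with many rises varied as widely. The word stood in 6 of 10 alternative activation genes and 5 of 9 interferon-inducible GTPases, but in 1 of 12 antiviral effectors. A match is a description of the letters in the window and not of binding.

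The 4 largest rises were in Ubd, Saa3, Retnlb and Cxcl9. Ubd, a ubiquitin-like modifier induced by inflammatory cytokines, read -5.41, -6.24 and -6.25 on saline arrays 1 to 3 and -0.51, 1.17 and 0.98 on OVA arrays 1 to 3, in log2 signal relative to the 75th percentile of each array. It rose by 6.51 ± 0.65 (SE) on the log2 scale, 91.1-fold (adjusted p = 0.00128). Saa3, an acute-phase apolipoprotein made in inflamed tissue, read -2.26, -2.20 and -2.04 after saline and 3.03, 4.82 and 4.63 after OVA, an 80.3-fold rise (6.33 ± 0.40, adjusted p = 0.000261). For both genes every OVA array lay several log2 units above every saline array. Their probes lie at chr17:35348129-35348188 (Ubd) and chr7:42888862-42888921 (Saa3) of mm7, the build named in the file headers. The acute-phase gene Saa1 rose 24.1-fold (4.59 ± 0.51, adjusted p = 0.00174). Gdf3, a TGF-beta family ligand, rose by 5.48 ± 0.76 (adjusted p = 0.00385), and was above background on 1 saline and 3 OVA arrays.

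In 35 genes the probe was well above background on no wild-type saline array and on all 3 OVA arrays, and all 35 were called. These genes could pass the filter of 2 or more arrays on their OVA arrays alone. The reverse, above background on all 3 saline arrays and on no OVA array, held for 157 genes, of which 33 were called. For genes at background throughout 1 group the fold is a lower bound, set against the dimmest signal that still counted as above background. Retnlb, a resistin-like protein of goblet cells, read -7.80, -8.16 and -7.47 after saline and -2.72, -0.80 and -0.96 after OVA, at least 47.1-fold higher (adjusted p = 0.00296). Ccl1, a ligand of the T cell receptor CCR8, was at least 8.81-fold higher (adjusted p = 0.00312). Saa4 was at least 8.05-fold higher (adjusted p = 0.00724), Cxcl11 at least 6.78-fold (0.00136), Tarm1, a receptor of myeloid cells, at least 6.58-fold (0.0047), and Lemd1 at least 5.46-fold (0.00143). Cngb3, a subunit of the cone photoreceptor channel, was at least 5.62-fold higher (adjusted p = 0.00123), and Dppa3, known from germ cells, at least 5.44-fold (0.0019). Msx3, a homeobox gene, was at least 9.20-fold higher (adjusted p = 0.0193), but lost its call without OVA array 2 or 3 or saline array 1 or 3 (adjusted p up to 0.0646), and its second probe changed by 0.87 and was not called. Of the 14 called genes given with a bound in the text, 13 had a smaller fold than their bound in the authors' table.

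**Figure D2:**
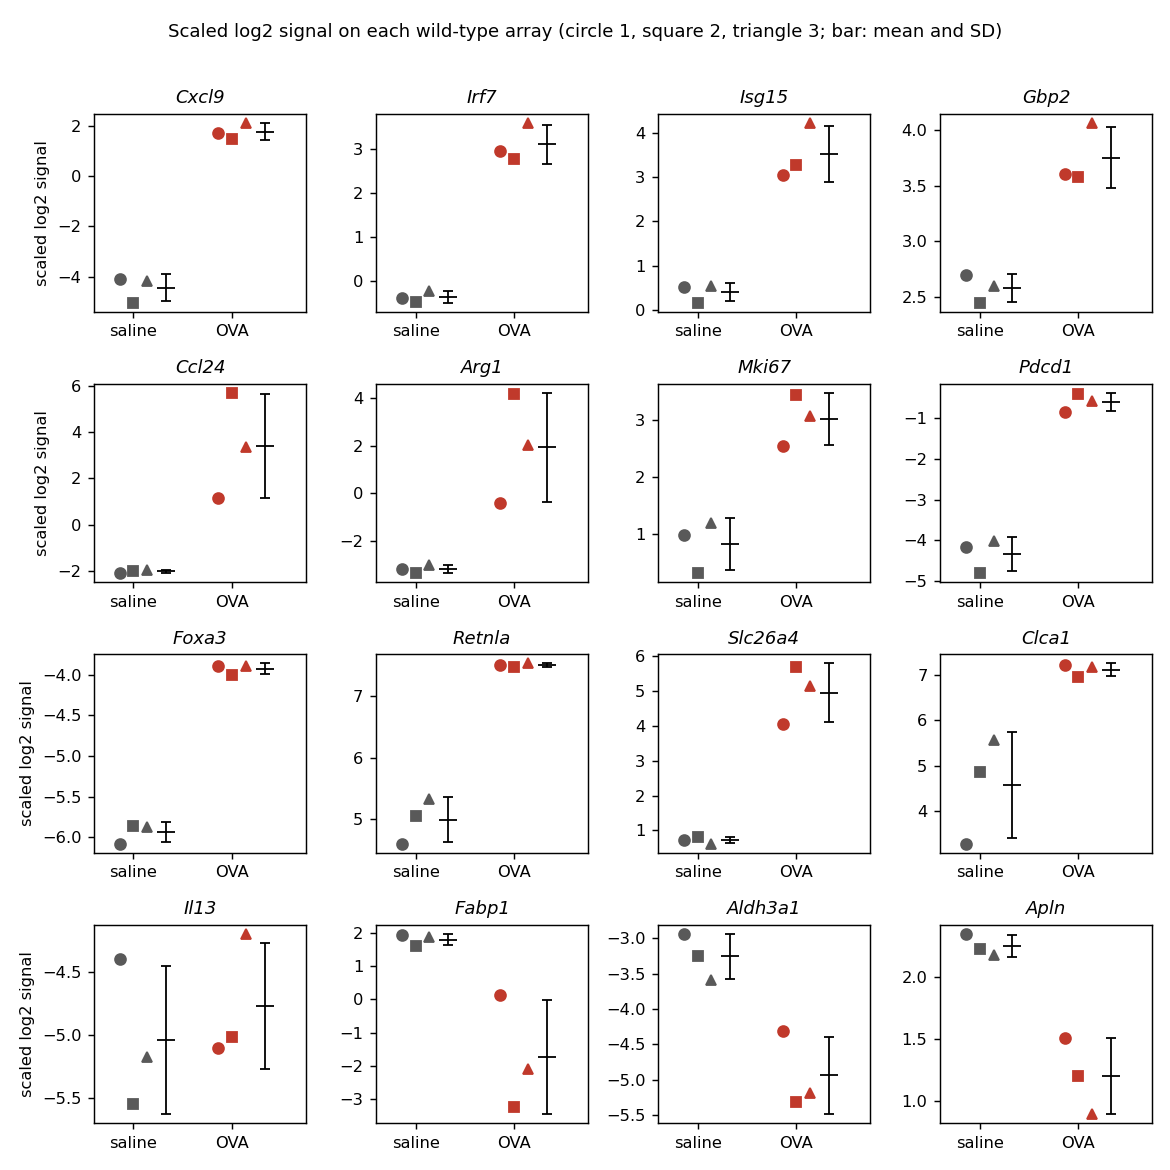
Scaled log2 signal of 16 genes (vertical, log2 relative to the 75th percentile of the array, with a scale of its own in each panel) on the 3 saline (grey) and 3 OVA (red) wild-type arrays, with mean and SD as a bar. The groups are apart in the panels except those of Il13, where the arrays overlap, and in Ccl24, Arg1 and Fabp1 OVA array 1 (red circle) lies nearest to saline. Levels are not comparable between panels.

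Chemokines and their receptors rose broadly. Of 33 measured Ccl and Cxcl genes 24 rose and 1 fell (median log2 change 1.96), and of 16 Ccr and Cxcr receptors 9 rose and 0 fell (1.27, as low as 0.56 over the scalings and background corrections tried). Ligands of CXCR3, the receptor of T helper 1 and cytotoxic cells, rose in full. Cxcl9 read -4.11, -5.04 and -4.17 after saline and 1.69, 1.49 and 2.13 after OVA, a 74.0-fold rise (6.21 ± 0.29, adjusted p = 0.000125). Cxcl10 read -2.28, -3.10 and -2.54 after saline and 2.31, 2.59 and 3.40 after OVA, a 42.3-fold rise (5.40 ± 0.29, adjusted p = 0.000153). Both changes were alike on the 3 slides, at 6.23, 6.74 and 5.66 for Cxcl9 and 5.68, 5.40 and 5.13 for Cxcl10. The receptor Cxcr3 itself rose 2.96-fold (1.57 ± 0.24, adjusted p = 0.00559).

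All 10 eotaxins, monocyte chemokines and their receptors rose (median 3.49, against 0.02 over all genes). Ccl7 read -3.56, -3.83 and -4.29 after saline and 0.33, 2.41 and 1.54 after OVA (5.32 ± 0.49, adjusted p = 0.00113). Ccl8 rose by 5.24 ± 0.57 (adjusted p = 0.00167) and Ccl2 by 4.56 ± 0.39 (0.000788), which both attract monocytes. The eotaxin Ccl11 rose by 3.36 ± 0.56 (adjusted p = 0.00753). Ccl24, the eotaxin of alternatively activated macrophages, had almost equal saline values of -2.09, -2.00 and -1.97 but widely spread OVA values of 1.16, 5.69 and 3.33 (5.42 ± 1.09, adjusted p = 0.0147), and its call was lost without OVA array 3 or saline array 2 (adjusted p up to 0.0532). The eotaxin receptor Ccr3 rose by 2.71 ± 0.50 (adjusted p = 0.0112), while its second probe changed by 0.79 and was not called.

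Of 7 neutrophil attractants and their receptor 3 rose: Cxcl3 by 4.04 ± 0.54 (adjusted p = 0.00345), Cxcl5 by 3.88 ± 0.65 (0.00768) and Cxcl1 by 2.26 ± 0.36 (0.00613). Ligands that draw T helper 2 and regulatory T cells through CCR4 rose less: Ccl17 by 1.64 ± 0.35 (adjusted p = 0.0186) and Ccl22 by 1.64 ± 0.41 (0.0281). These 2 calls were lost without OVA array 3, saline array 2 or saline array 3, and that of Ccl22 also without OVA array 2 or saline array 1 (adjusted p up to 0.0597 and 0.104). Among genes of lymphoid tissue, the B cell attractant Cxcl13 rose by 4.25 ± 0.34 (adjusted p = 0.000535), the lymphotoxin Lta by 2.23 ± 0.36 (0.0062) and the T cell zone chemokine Ccl19 by 1.86 ± 0.19 (0.00128).

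The cytokines that define the allergic response moved less, and at levels near background. Of 9 type 2 cytokines and alarmins measured 5 rose and 0 fell. Il13, named here although it was not called, read -4.40, -5.54 and -5.17 after saline and -5.10, -5.01 and -4.20 after OVA (0.27 ± 0.44, adjusted p = 0.707), and its groups overlapped. Il4 read -5.14, -4.46 and -4.62 after saline and -3.77, -1.61 and -2.65 after OVA (2.06 ± 0.48, adjusted p = 0.0237). Il5 rose by 2.10 ± 0.53 (adjusted p = 0.0301), and was well above background on 1 saline and 2 OVA arrays. The calls of Il4 and Il5 were lost without any wild-type array other than OVA array 1 (adjusted p up to 0.0767 and 0.0965), and that of Il5 also with slide as a term (0.051) and in the authors' table (a change of 0.53, 0.0527). Il21 of follicular helper T cells was not well above background on any saline array and was at least 1.70-fold higher after OVA (adjusted p = 0.00535), and likewise the regulatory cytokine Il10 was at least 2.93-fold higher (0.00431). Without OVA array 2 or 3, 2 of the list's 5 calls remained, and without any 1 saline array 3 remained.

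Receptors for these cytokines rose in 8 of 11 cases and fell in 0 (median 0.77, as low as 0.49 over the scalings and background corrections tried). Il13ra2, the decoy receptor for IL-13, was not above background on any saline array and was at least 3.32-fold higher after OVA (adjusted p = 0.0109), but its change in the authors' table was 0.68, below that bound and not called (0.0746). Csf2rb2, a chain of the IL-3 receptor, rose by 1.60 ± 0.26 (adjusted p = 0.00718) and Il17rb, the IL-25 receptor, by 0.80 ± 0.14 (0.00958). With OVA array 2, OVA array 3, saline array 1 or saline array 2 left out, 3 or 4 of the 8 calls remained. Of STAT factors and SOCS inhibitors 6 of 11 rose, led by the feedback inhibitor Socs1 (2.72 ± 0.35, adjusted p = 0.00304) and Stat2 (1.41 ± 0.20, 0.00411), a factor that carries interferon signals.

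Interferon-stimulated antiviral effectors rose without exception: 17 of 17 measured genes (median 2.40), all of them also without each wild-type array in turn and with slide as a term. Isg15, a ubiquitin-like protein conjugated to viral and host proteins, read 0.52, 0.16 and 0.53 after saline and 3.05, 3.27 and 4.24 after OVA (3.12 ± 0.30, adjusted p = 0.00123). Zbp1, a sensor of Z-form nucleic acid, rose by 3.49 ± 0.32 (adjusted p = 0.00113), Mx1 by 3.43 ± 0.26 (0.000535) and Oas3, which makes 2-5A to activate RNase L, by 3.19 ± 0.47 (0.00468). Irf7, the factor that amplifies type I interferon, read -0.36, -0.47 and -0.22 after saline and 2.94, 2.77 and 3.59 after OVA (3.45 ± 0.25, adjusted p = 0.000484). Each of these genes had its highest value on OVA array 3. Nucleic acid sensors and their adaptors, cytosolic and endosomal, rose in 7 of 9 cases, among them Dhx58 (2.36 ± 0.22, adjusted p = 0.00115), Ifi204 (2.22 ± 0.22, 0.00128) and Sting1 (1.68 ± 0.22, 0.00325).

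The interferon-gamma-inducible GTPases, which attack vacuoles that hold pathogens, rose in 12 of 12 cases (median 1.56), 11 of them also without each array in turn. Gbp5 rose by 2.16 ± 0.30 (adjusted p = 0.00385), Iigp1 by 2.06 ± 0.21 (0.00139) and Irgm1 by 1.79 ± 0.18 (0.00128). Gbp2, whose promoter is printed above, read 2.70, 2.45 and 2.59 after saline and 3.61, 3.58 and 4.07 after OVA (1.17 ± 0.15, adjusted p = 0.00326). All 11 measured genes of MHC class I and the immunoproteasome rose (median 0.96), with the peptide pump Tap1 at 1.45 ± 0.22 (adjusted p = 0.00555) and the immunoproteasome subunits Psmb9 at 1.31 ± 0.17 (0.00335) and Psmb8 at 1.29 ± 0.15 (0.00243). Of 10 MHC class II genes 8 rose (median 1.08), including the peptide exchange chain H2-DMb1 (1.44 ± 0.21, adjusted p = 0.00494) and the invariant chain Cd74 (1.09 ± 0.16, 0.00439).

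Genes of T cell costimulation and its checkpoints rose in 14 of 14 cases (median 1.57), and 13 kept the call without each array in turn. Pdcd1, which encodes the inhibitory receptor PD-1, read -4.17, -4.80 and -4.02 after saline and -0.84, -0.40 and -0.57 after OVA (3.73 ± 0.26, adjusted p = 0.000418). Its ligand Pdcd1lg2 (PD-L2) read -6.08, -5.88 and -6.05 after saline and -2.88, 0.23 and -1.50 after OVA (4.62 ± 0.74, adjusted p = 0.00634). Ctla4, an inhibitory receptor of regulatory T cells, was not well above background on any saline array and was at least 3.77-fold higher after OVA (adjusted p = 0.00313). Genes of the T cell receptor complex and helper fate changed less: 11 of 17 rose and 1 fell (median 0.71), with Cd8a at 1.73 ± 0.32 (adjusted p = 0.0109), Cd5 at 1.47 ± 0.22 (0.00496) and Cd3d at 1.39 ± 0.24 (0.00896). Of these 12 calls, 4 or 5 remained without OVA array 2, OVA array 3, saline array 1 or saline array 2. Natural killer and cytotoxic genes rose in 6 of 14 cases, none of them in every fit that left out 1 array: 6 without OVA array 1, 5 without saline array 3, and 0 to 2 without any other. Saline array 1 had the lowest value of the group for Cd8a, Cd5 and Cd3d, and the T cell list changed by a median of 1.08 on its slide against 0.66 and 0.47 on the others.

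None of 10 B cell genes was called by limma, and 0 had an unadjusted p under 0.05. Their median change was 1.78 on slide 1 and 0.08 and 0.14 on slides 2 and 3. Ms4a1 (CD20) read 0.45 on saline array 1 but 2.06 and 2.03 on the other two, and 2.10, 2.59 and 2.53 after OVA (0.89 ± 0.42, adjusted p = 0.157). Among plasma cell and antibody genes 3 of 11 rose, led by Pigr, the epithelial transporter of IgA (1.87 ± 0.25, adjusted p = 0.00347), and 1 of the 3 calls remained without OVA array 2, OVA array 3, saline array 1 or saline array 2.

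Of 14 macrophage and monocyte genes 12 rose and 0 fell (median 1.43). Ms4a7 read -1.03, -1.28 and -1.41 after saline and 1.50, 3.00 and 2.02 after OVA (3.41 ± 0.47, adjusted p = 0.00376). The complement chains made by macrophages, C1qb (2.74 ± 0.33, adjusted p = 0.00256) and C1qa (2.53 ± 0.32, 0.00304), and the high-affinity IgG receptor Fcgr1 (3.09 ± 0.35, 0.00202) rose with it. With OVA array 2, OVA array 3, saline array 1 or saline array 2 left out, 7 of the 12 calls remained. Resident alveolar macrophage genes did not share one direction: 2 of 11 rose and 2 fell, and their median change was 0.11, as low as 0.04 over the scalings and background corrections tried. Without any 1 array other than OVA array 1, 1 or 2 of those 4 calls remained.

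Genes of alternative macrophage activation rose in 14 of 17 cases and fell in 0 (median 1.64), with 8 to 10 calls without any 1 array other than OVA array 1. Arg1, arginase, varied most among the OVA arrays of any called gene changed at least 2-fold: it read -3.16, -3.35 and -3.00 after saline and -0.40, 4.16 and 2.02 after OVA (5.10 ± 1.18, adjusted p = 0.0227). Every OVA array lay above every saline array, but the call was lost without any wild-type array other than OVA array 1 (adjusted p up to 0.0745). Il4i1, an amino acid oxidase induced by IL-4, rose by 2.97 ± 0.38 (adjusted p = 0.00312) and the lipoxygenase Alox15 by 2.74 ± 0.45 (0.00724). Retnla, in contrast, was among the genes with the narrowest OVA values: it read 4.60, 5.04 and 5.33 after saline and 7.51, 7.48 and 7.54 after OVA (2.52 ± 0.35, adjusted p = 0.00392). Chitinases rose in 5 of 7 cases, in every fit that left out 1 array, with Chit1 at 2.99 ± 0.35 (adjusted p = 0.0022), Chia1 at 2.00 ± 0.23 (0.00194) and Chil4 at 1.99 ± 0.20 (0.00128).

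Eosinophil genes were carried by few members. Of 8 measured genes 4 were not called, among them the lowest change of the list, -2.05. Prg2, the major basic protein of the granule, read -4.73, -4.87 and -4.51 after saline and -2.91, -0.52 and -1.59 after OVA (3.03 ± 0.49, adjusted p = 0.00634). With Alox15 and Ccr3 it made the 3 rises among 8 measured genes, while Siglecf, which alveolar macrophages also express, fell by 0.49 on the log2 scale (adjusted p = 0.0313) and lost this call without any wild-type array other than OVA array 1 (adjusted p up to 0.105) and with slide as a term (0.0552). Of 11 neutrophil genes 2 rose, Cd177 by 2.36 ± 0.31 (adjusted p = 0.00333) and Ltf by 0.98 ± 0.23 (0.0232), the latter not without OVA array 2 or 3 or saline array 1 or 2 (adjusted p up to 0.0772). The list's median was 0.83, 0.77 and -0.33 on slides 1 to 3. Of 11 mast cell and basophil genes 1 rose and 1 fell (9.1% each, near the 10.8% and 7.95% of all genes). Mcpt2, a mucosal mast cell protease, was well above background on no saline array and 1 OVA array and was at least 1.20-fold higher (adjusted p = 0.0408), while the stem cell factor receptor Kit fell by 0.66 on the log2 scale (adjusted p = 0.0293), and both calls were lost without any array other than OVA array 1. That of Mcpt2 was also lost with slide as a term (0.0599) and in the authors' table (a change of 0.36, adjusted p = 0.101).

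Innate receptors and effectors of phagocytes differed by list. Of 11 myeloid C-type lectins 8 rose (median 1.77, or 1.37 with the gene at background after saline set at its bound), led by the fungal receptor Clec7a (2.35 ± 0.40, adjusted p = 0.00799). Of 8 Fc receptor genes 6 rose (median 1.22), including the inhibitory Fcgr2b (2.25 ± 0.37, adjusted p = 0.00729), and 2 to 4 remained called without OVA array 2, OVA array 3, saline array 1 or saline array 2. Complement genes rose in 10 of 16 cases and fell in 1, with factor B, Cfb, among the genes of smallest adjusted p: it read 2.37, 2.42 and 2.52 after saline and 5.09, 5.50 and 5.73 after OVA (3.00 ± 0.17, adjusted p = 0.000165). Lysosomal cathepsins and their partners rose in 10 of 17 cases and fell in 1, with Ctss at 1.74 ± 0.25 (adjusted p = 0.00435), and 4 or 5 of these 11 calls remained without OVA array 2, OVA array 3 or saline array 2. Among 14 scavenger and lipid receptors of phagocytes 3 rose and 1 fell, led by Msr1 (3.30 ± 0.47, adjusted p = 0.00419) and Trem2 (3.03 ± 0.48, 0.00613), and 2 of these 4 calls remained without OVA array 2, OVA array 3, saline array 1 or saline array 2.

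Genes of the leukotriene and prostaglandin pathway, a list of synthesis enzymes, receptors and a degrading enzyme, rose in 11 of 21 cases and fell in 2 (median 0.66). The epidermal-type lipoxygenase Alox12e read -4.80, -4.48 and -4.19 after saline and -1.68, -1.69 and -0.93 after OVA (3.06 ± 0.29, adjusted p = 0.00119). The phospholipase Pla2g4c, which frees arachidonic acid, read -4.67, -4.81 and -5.11 after saline and -1.88, -1.90 and -1.66 after OVA (3.05 ± 0.31, adjusted p = 0.00134). In both genes the OVA arrays stood close together and far above saline. Only 4 of the 13 calls remained without OVA array 2, OVA array 3 or saline array 2, 7 without saline array 3 and 8 without saline array 1.

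In the airway epithelium the goblet cell and mucus genes rose in 14 of 16 measured cases and fell in 0 (median 1.67, as low as 0.99 over the scalings and background corrections tried), and 10 kept the call without each array in turn. Slc26a4, pendrin, which exchanges chloride for anions on the airway surface, read 0.72, 0.81 and 0.63 after saline and 4.04, 5.68 and 5.14 after OVA (4.23 ± 0.44, adjusted p = 0.00138). Itln1, an intelectin secreted with mucus, rose by 3.91 ± 0.39 (adjusted p = 0.00128) and Agr2, a disulfide isomerase needed for mucin folding, by 2.66 ± 0.32 (0.00244). Clca1, added here after its values were seen as a standard goblet cell gene, read 3.28, 4.86 and 5.57 after saline and 7.22, 6.95 and 7.18 after OVA (2.54 ± 0.52, adjusted p = 0.0159), a call lost without OVA array 2 or 3 (up to 0.0584). The saline arrays of Clca1 differed more than its OVA arrays. Among 18 epithelial transcription factors 4 rose, among them Spdef, the driver of goblet differentiation (1.50 ± 0.21, adjusted p = 0.00411), and Foxa3, and 2 of these calls remained without any 1 array other than OVA array 1.

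Foxa3, the gene deleted in the other arm, read -6.08, -5.87 and -5.87 after saline and -3.89, -4.00 and -3.89 after OVA in wild type, a rise of 2.01 ± 0.30 (adjusted p = 0.00496) that was nearly equal on the 3 slides (2.19, 1.98 and 1.86) and was 0.76 in the authors' table (adjusted p = 0.000773). In the knockout it averaged -8.53 after saline and -8.41 after OVA. Its relatives Foxa2 (log2 change -0.34, adjusted p = 0.152) and Foxa1 (-0.56, 0.0731) were not called, though Foxa1 was without OVA array 1 (0.0138).

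Among the lists not made of immune genes, mitosis had the largest share of members called. The lists were chosen with earlier results of these data known. Which cells, leukocytes included, held these transcripts was not tested. Of 20 mitosis genes 20 rose (median 2.29), all of them without each array in turn and with slide as a term, and their medians on slides 1 to 3 were 2.20, 2.17 and 2.42. Mki67, the marker of cycling cells, read 1.00, 0.32 and 1.19 after saline and 2.55, 3.45 and 3.08 after OVA (2.19 ± 0.32, adjusted p = 0.00456). Birc5, survivin of the chromosomal passenger complex, rose by 2.61 ± 0.31 (adjusted p = 0.00244) and cyclin B1, Ccnb1, by 2.56 ± 0.28 (0.00178). The genes whose promoters are printed above rose too: Ube2c by 2.39 ± 0.31 (adjusted p = 0.00312), Top2a by 2.40 ± 0.36 (0.00496), Cdk1 by 2.22 ± 0.33 (0.0047) and Cdc20 by 2.20 ± 0.33 (0.00501), while the second probe of Cdk1 changed by 1.31 and was not called. DNA replication genes rose in 18 of 20 cases (median 1.26), led by the ribonucleotide reductase subunit Rrm2 (2.77 ± 0.37, adjusted p = 0.00348), and 7 to 9 remained called without OVA array 2, OVA array 3, saline array 1 or saline array 2. Of 14 cell-cycle inhibitors and p53 targets 1 fell (7.1%, near the 7.95% of all genes), Cdkn1c by 0.65 on the log2 scale (adjusted p = 0.00507).

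**Figure D3:**
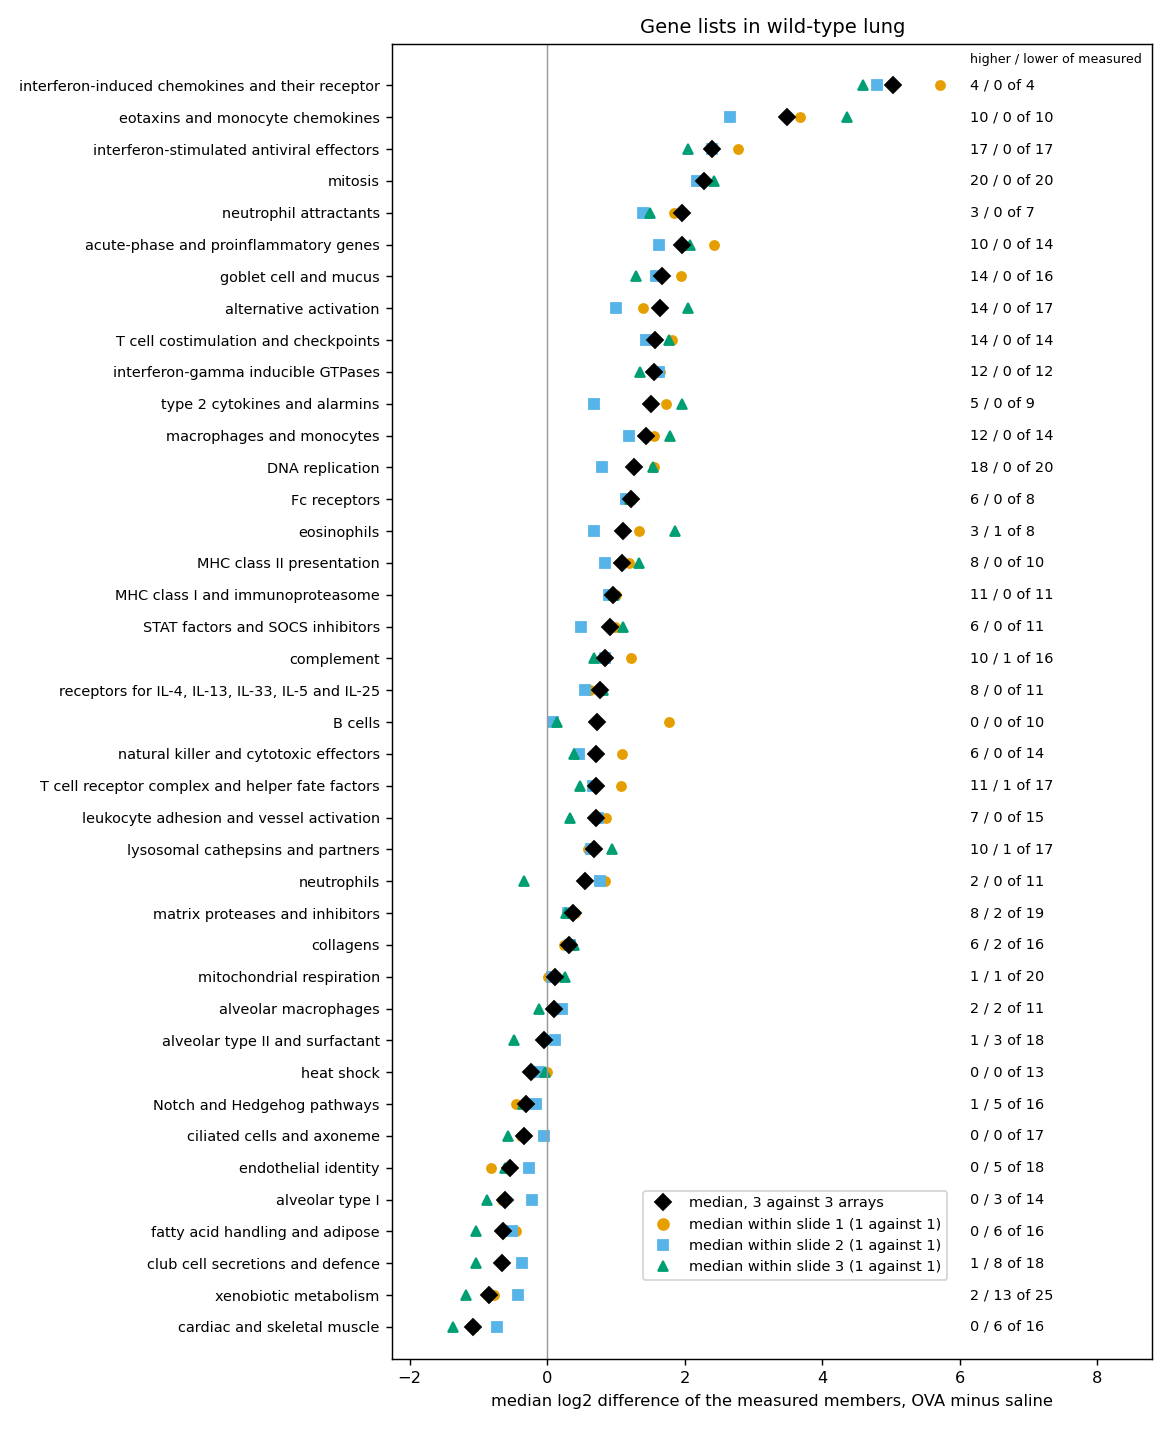
Median log2 difference between OVA and saline of the measured members of 40 gene lists (black diamonds, 3 against 3 arrays) and the same median within each slide (coloured marks, 1 against 1 array), with the numbers of members called higher and lower on the right. The CXCR3 chemokines have a median of 5.03, which was 4.08 with Cxcl11 set at its bound and as low as 3.20 over the scalings and background corrections tried, and the cardiac and skeletal muscle list has -1.07. The median of mitochondrial respiration, 0.11 here, was as low as -0.01 over them. These ranges leave out normexp on all spots.

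Genes of the extracellular matrix changed in both directions. Fibrillar collagens rose modestly, Col3a1 by 1.11 ± 0.16 (adjusted p = 0.00431) and Col1a1 by 0.99 ± 0.18 (0.0114), within 6 rises and 2 falls among 16 collagens, of which 2 or 3 calls remained without any 1 wild-type array other than OVA array 1. Matrix proteases and their inhibitors rose in 8 of 19 cases and fell in 2. The inhibitor Timp1 read 0.92, 0.70 and 0.86 after saline and 4.03, 6.13 and 5.30 after OVA, a 20.1-fold rise (4.33 ± 0.50, adjusted p = 0.0021). The macrophage elastase Mmp12 read -4.16, -4.53 and -4.23 after saline and -1.77, 0.94 and -0.63 after OVA (3.82 ± 0.68, adjusted p = 0.00947). Without OVA array 2, OVA array 3 or saline array 2, 3 or 4 of these 10 calls remained, and without saline array 3, 6. Among ligands, receptors and inhibitors of the TGF-beta superfamily 2 of 20 rose (10%, near the 10.8% of all genes) and 4 fell (20%, against 7.95%). The activin subunit Inhba rose by 2.24 ± 0.41 (adjusted p = 0.0111), and 2 or 3 of the list's calls remained without any 1 array other than OVA array 1.

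Of 15 genes of leukocyte adhesion and vessel activation, a list that holds both endothelial molecules and their partners on leukocytes, 7 rose and 0 fell. The endothelial selectins rose, Sele (E-selectin) by 2.36 ± 0.39 (adjusted p = 0.00745, but 0.78 in the authors' table) and Selp (P-selectin) by 2.03 ± 0.26 (0.00301), and of the 7 calls 3 remained without OVA array 2, OVA array 3 or saline array 2. Genes of endothelial identity lay below 0 in 18 of 18 cases (median -0.54, highest -0.27), but only 5 were called, and none or 1 of them remained called without any 1 array other than OVA array 1. The peptide apelin and its receptor on endothelium fell in every fit that left out 1 array. Apln read 2.34, 2.22 and 2.18 after saline and 1.51, 1.20 and 0.90 after OVA (-1.05 ± 0.15, adjusted p = 0.00486), and its receptor Aplnr read 0.99, 0.96 and 0.85 after saline and 0.22, 0.05 and 0.10 after OVA (-0.81 ± 0.11, adjusted p = 0.00368). In the mesenchyme Fgf10 fell by 1.16 on the log2 scale (SE 0.20, adjusted p = 0.0092), 1 of 4 falls among 14 fibroblast genes, and 1 of these calls remained without any 1 array other than OVA array 1.

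Falls were found in lists of xenobiotic metabolism, club cells and fatty acid handling. Of 25 genes of xenobiotic metabolism 13 fell and 2 rose (median -0.84). The aromatic hydrocarbon oxidase Cyp1a1 read 3.50, 2.57 and 2.06 after saline and 0.71, 0.24 and 0.25 after OVA (-2.31 ± 0.45, adjusted p = 0.0135), a call lost without OVA array 2 or 3 (adjusted p up to 0.0551). Gsta2, a glutathione transferase added here after its values were seen, fell by 1.30 on the log2 scale (SE 0.26, adjusted p = 0.0155), a call lost without saline array 1 or 2 (up to 0.0595). Of these 15 calls 4 to 7 remained without OVA array 2, OVA array 3, saline array 1 or saline array 2. By symbol, 9 of 22 Gst genes fell and 1 rose, and 15 of 63 Cyp genes fell and 5 rose.

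Club cell genes overlapped with these enzymes: 8 of 18 fell and 1 rose (median -0.65), although the secretoglobin Scgb1a1 did not pass the test. Aldh3a1, an aldehyde dehydrogenase, fell by 1.68 on the log2 scale (SE 0.28, adjusted p = 0.0072), also without each array in turn. The one rise was Bpifb1, a secreted airway defence protein (1.11 ± 0.22, adjusted p = 0.0134), not called without OVA array 3 (0.0542). Without OVA array 2, OVA array 3, saline array 1, 2 or 3, between 3 and 5 of the 9 calls remained.

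The largest fall among called genes was Fabp1, a fatty acid binding protein. It read 1.93, 1.60 and 1.87 after saline and 0.13, -3.24 and -2.11 after OVA (-3.54 ± 0.81, adjusted p = 0.0222), with every OVA array below every saline array. The call was lost without any wild-type array other than OVA array 1 (adjusted p up to 0.0779). Pon1, a paraoxonase of lipoproteins, read 2.94, 2.81 and 2.40 after saline and 1.24, -0.86 and 0.01 after OVA (-2.59 ± 0.55, adjusted p = 0.0176), a call lost without OVA array 2 or 3 or saline array 1 or 2 (up to 0.0639). Kcnip4, a potassium channel partner, fell by 2.26 on the log2 scale (SE 0.34, adjusted p = 0.00496) in every such fit, though its second probe changed by -1.32 and was not called. Genes of fatty acid handling and adipose tissue fell in 6 of 16 cases and rose in 0, of which 0 or 1 remained without any 1 array other than OVA array 1.

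Some markers of muscle and fat fell too. Of 16 cardiac and skeletal muscle genes 6 fell and 0 rose (median -1.07, range -1.87 to 0.07), and 0 or 1 of the 6 calls remained without any 1 array other than OVA array 1 and 0 with slide as a term. Myh6, a cardiac myosin heavy chain, read 3.60, 3.62 and 3.27 after saline and 2.81, 1.39 and 2.54 after OVA (-1.25 ± 0.35, adjusted p = 0.0413), a call lost without any array other than OVA array 1 (up to 0.117) and with slide as a term (0.0583). The adipose hormone Adipoq read 0.07, 0.16 and -0.55 after saline and -1.03, -2.25 and -0.96 after OVA (-1.30 ± 0.36, adjusted p = 0.0381), a call lost without OVA array 2 or 3 or saline array 1 or 2 (up to 0.117). Where this muscle and fat RNA came from, and its part in the falls of metabolic genes, was not tested.

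Several programmes showed few or no calls, set against 10.8% of all genes called higher and 7.95% called lower. Of 17 ciliated cell genes, 13 heat shock genes and 7 thymus and liver genes none was called by limma at an adjusted p under 0.05, and 8, 2 and 0 had an unadjusted p under 0.05. Alveolar type II genes rose in 1 and fell in 3 of 18 cases, the 1 being the collectin Sftpd (0.51 ± 0.08, adjusted p = 0.00664, but 0.15 and 0.283 in the authors' table), and 1 to 3 of the 4 calls remained without any 1 wild-type array. Of 20 mitochondrial respiration genes 1 rose and 1 fell, and of 18 cholesterol synthesis genes 2 rose, and 0 calls of either list remained without any 1 array other than OVA array 1. Ribosomal protein genes, in contrast, were called higher more often than all genes: 29 of 95 rose (30.5%) and 1 fell. Their median was 0.28, which ranged from 0.08 to 0.28 over the scalings and background corrections tried. Zinc finger genes of the Zfp family were called lower more often than all genes. They fell in 40 of 326 cases (12.3%) and rose in 7 (median -0.19, up to -0.09 over them). Olfactory receptor genes were called in 2 of 388 cases.

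The shift from saline differed in size between the 3 OVA arrays. For each gene the shift of an OVA array from the saline mean was taken in the direction of the gene's mean change. Over all genes 59.2% had their smallest such shift on OVA array 1, and this was so for 1019 of the 1156 rises of at least 2-fold. The median rise of those genes was 1.17 on OVA array 1, 1.88 on array 2 and 1.70 on array 3, and for the 304 falls the medians were -0.74, -1.69 and -1.32. Arrays 2 and 3 differed by programme. The shift was largest on OVA array 2 for 20 of 20 mitosis genes (medians 1.73, 2.76 and 2.40 on arrays 1 to 3), 10 of 10 eotaxins and monocyte chemokines (2.37, 4.48 and 3.69), 14 of 17 genes of alternative activation and 15 of 15 glycolysis genes. It was largest on OVA array 3 for 17 of 17 antiviral effectors (2.19, 2.04 and 2.91), 12 of 12 inducible GTPases (1.43, 1.27 and 1.92) and 4 of 4 genes of the CXCR3 axis (4.54, 4.67 and 5.88). Goblet cell genes were nearly even, at 1.57, 1.66 and 1.76. Set against the saline array of its own slide, the antiviral median was 2.77 on the slide of OVA array 3, 2.40 on that of array 1 and 2.04 on that of array 2, and the mitosis median was 2.20, 2.17 and 2.42. OVA array 1 also had 183 left-out spots, against 60 and 51 on arrays 2 and 3. Its 75th-percentile signal was 913, against 1156 and 1057, and 72.83% of its probes were well above background, against 72.89% and 76.85%. OVA arrays 1, 2 and 3 were on slides 2, 3 and 1, so slide, lung sample and array quality cannot be told apart for these differences.

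**Figure D4:**
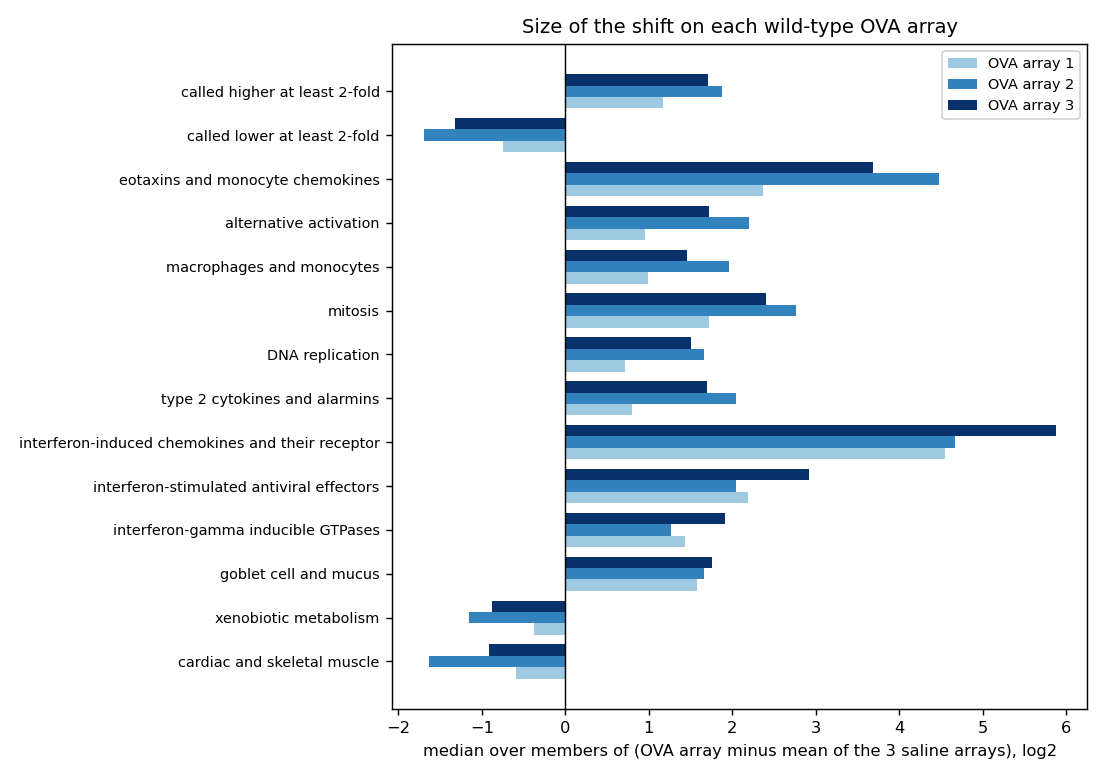
Median over the genes of a set of the difference between each wild-type OVA array and the mean of the 3 saline arrays (log2, bars from 0), for 14 sets of genes. OVA array 1 has the smallest bar for mitosis (1.73) and for the eotaxins and monocyte chemokines (2.37), array 2 the largest in both, and array 3 the largest for the antiviral effectors (2.91). The 3 bars of the goblet cell set are nearly equal.

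In the Foxa3 knockout, measured on 3 OVA and 2 saline arrays, the direction was shared: of the 1460 genes changed at least 2-fold in wild type 1446 had the same sign. Their median change was 1.57 in wild type and 1.52 in knockout for the rises, and -1.24 and -1.02 for the falls. A test of the difference between the 2 changes called 1 of 22085 genes (0.00453%), and 568 had an unadjusted p under 0.05. Side by side, mitosis genes had medians of 2.29 in wild type and 2.74 in knockout, goblet cell genes 1.67 and 1.54, alternative activation genes 1.64 and 2.23, and antiviral effectors 2.40 and 0.82. Irf7 changed by 3.45 in wild type and 1.22 in knockout, Ifit1 by 2.41 and 0.59, and Oas2 by 2.27 and 0.68, differences that did not pass the adjusted threshold. In the other direction Cd209d changed by 1.12 in wild type and 2.68 in knockout, which did not pass either.

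**Figure D5:**
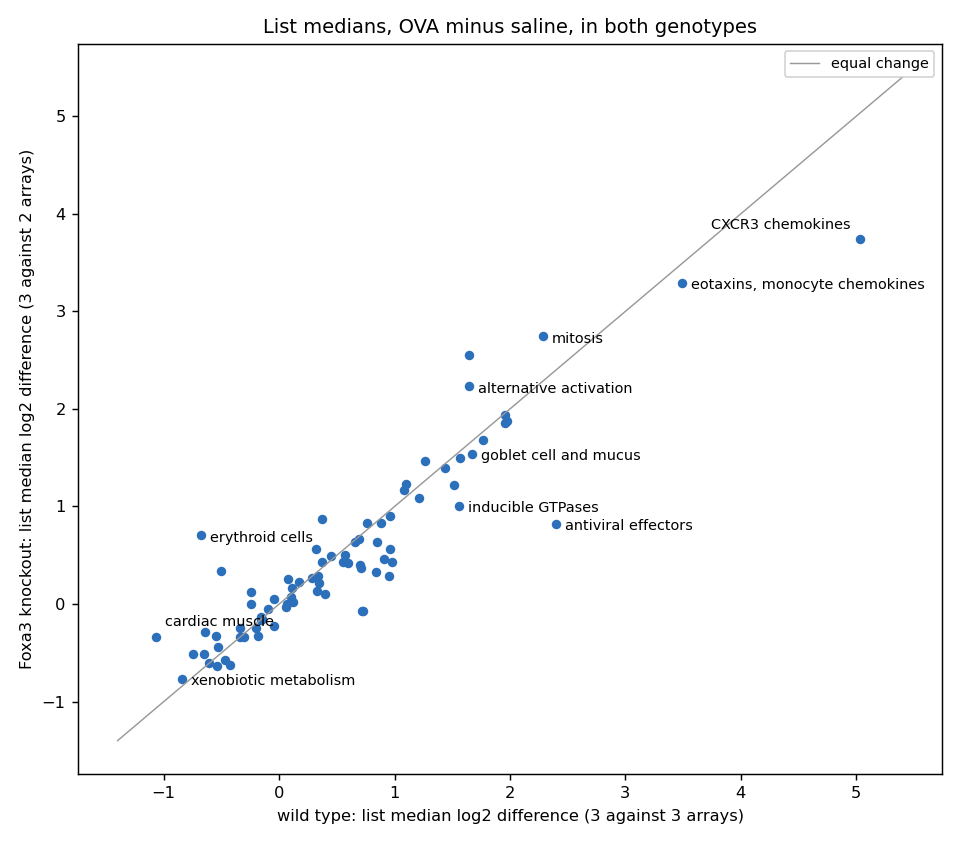
Median log2 difference between OVA and saline of each gene list with at least 4 measured members, in wild type (horizontal, 3 against 3 arrays) and Foxa3 knockout (vertical, 3 against 2 arrays), with the line of equal change. The antiviral effectors (2.40 against 0.82) lie below the line and mitosis (2.29 against 2.74) above it. The erythroid list, at -0.68 in wild type, changed sign to 0.15 under another background correction.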

How the data were processed

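Total lung RNA was labelled with Cy3 and hybridised to 11 one-colour 44k Agilent mouse arrays, per the labels. Per the file headers, the authors' scanner files give Feature Extraction's processed signal intensity, corrected for background and not normalised between arrays; the submitters' processing notes name Agilent Feature Extraction 9.1. The authors' deposited table of log2 values, whose centring is unstated, served as an alternative.

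Each array's log2 processed signal was set relative to its 75th percentile. Outlier spots were left out, spots of a probe were averaged, and the brightest probe per gene name was kept where well above background on 2 or more arrays. The 4 groups were fitted over all 11 arrays in limma 3.58.1 (R 4.3.3), with Benjamini-Hochberg adjustment over 22085 genes and a threshold of 0.05, and the fit was tested on simulated data. Named genes were drawn from the sets below, of which not every member is named. They were the 20 largest rises and falls, the 12 smallest p-values, up to 4 called members per list and genes off in 1 group. The genes most and least spread over the OVA arrays and those with the smallest p for the difference between genotypes were added. The preset lung and Foxa genes were named too. Fewer of the 20 falls than of the 20 rises are named, and of genes off in 1 group only those off after saline. Ccl11, Il13, Clca1, Gsta2, Mki67, Ms4a1 and the printed promoters' genes were chosen after their values were seen. Members and lists were chosen with earlier results of these data known. The number of arrays limits the precision.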

Additional observations from a re-analysis of the deposited data

Results flagged for a closer look

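The change after OVA differed between wild type and Foxa3 knockout for 1 feature of 22085, a probe without a gene name. It was not well above background on any of the 6 wild-type arrays, reading -9.28, -8.57 and -9.19 after saline and -8.65, -8.72 and -8.92 after OVA. In the knockout it averaged -5.57 after saline and -8.91 after OVA, a change of -3.33. The difference between the 2 changes was 3.58 ± 0.33 (limma, adjusted p = 0.0392).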

How the results depend on the processing

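The 4147 calls became 10515 with array weights, 2054 with only the 6 wild-type arrays, 2734 with slide as a block, 27, 1874 and 526 without slides 1, 2 and 3, and 0 with normexp background correction. Without 1 wild-type array the count ranged from 1051 to 6311. Same-numbered arrays did not deviate together (r = -0.13, 0.02 and -0.21), while arrays of the same slide did (r = 0.37, 0.18 and 0.20). Deviations were taken from the group means, so these values are tied to each other. They cannot decide whether the numbers pair the arrays. The replicate block gave 3233 calls. The median of all genes moved to 0.11 without a filter and to 0.13 with normexp without far-background spots. The difference between genotypes called 1 gene under the mean of probes and median scaling and 0 under the other alternatives (41 to 3133 at an unadjusted p under 0.05); without 1 wild-type array it called 0 to 1. The heat shock median ran from -0.49 to 0.11 without 1 array, and the erythroid median turned to 0.026 with normexp and 0.15 with normexp without far-background spots; the causes were not tested. Probes near background limit what dim genes can show.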

Other observations

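Of 21 chaperones and unfolded protein response genes of the endoplasmic reticulum, which fold secreted proteins, 9 rose and 0 fell (limma, median 0.45, range -0.60 to 1.38), and 3 to 5 of these calls remained without any 1 array other than OVA array 1. Of 49 proteasome subunits 12 rose and 0 fell (median 0.29), and of 15 cathepsins, the proteases of lysosomes, 8 rose and 1 fell (median 0.69, as low as 0.36 over the scalings and background corrections tried). Of 33 kinesins, the motors of microtubules, 13 rose and 7 fell (median 0.01, up to 0.21 over them). Homeobox genes of the Hox clusters had 0 rises and 5 falls of 23 (median -0.34, up to -0.06 over them). Axonemal dyneins, the motors of cilia, had 0 rises and 3 falls of 15 (median -0.42), beside a median within slides of -0.48, -0.13 and -0.69. Over all genes tested 10.8% rose and 7.95% fell.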
